A study of Drosophila melanogaster with 2 samples.

Results

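The mir-1 hairpin of Drosophila melanogaster, accession MI0000116, was followed in whole larvae of 2 genotypes. Rows of the deposited microRNA table were taken by that accession, which gave 2 products, MI0000116_1 and MI0000116_2, out of 101 products from 83 hairpins. The control larvae were wild type, and the others were homozygotes of the mutant allele cdk9-G57S, which alters the kinase Cdk9. Both groups were whole larvae with a labelled age of 48 h, grown at 25 °C, and the labels name no treatment for either. The labels name no further allele, strain or driver, and do not say how many larvae went into each RNA preparation. Total RNA was sequenced as 1 library per genotype, so differences between genotypes could not be set against a spread between replicates, and none was tested. Each interval is a 95% interval of counting error alone, and PCR copies of a molecule are not independent, so the true uncertainty is wider.

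A microRNA is cut from a long primary transcript made by RNA polymerase II. The Microprocessor, formed in the fly by Drosha and Pasha, releases the hairpin, Dicer-1 removes its loop, and a strand of the resulting duplex is kept in Argonaute1 while its partner is mostly degraded. Cdk9, with its cyclin, forms P-TEFb, a kinase that acts on the tail of elongating RNA polymerase II, and the series title places the study's question at recruitment of the Microprocessor to that polymerase. The microRNA miR-1 is conserved across animals and is made in muscle. In the fly its transcription in mesoderm depends on the muscle regulators Twist and Mef2, and larvae that lack it become immobile and die with damaged body wall muscle. Its known fly targets include the Notch ligand Delta in the heart lineage. The established miR-1 of animals comes from the 3′ arm of the hairpin.

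The reference annotation (Ensembl, BDGP6.54) holds 1 gene named mir-1, on the plus strand of chromosome arm 2L. Its 91-base hairpin lies within an exon of the long noncoding RNA gene lncRNA:CR45361, on the same strand, for which RefSeq gives pri-mir-1 as a synonym. The hairpin is thus exonic in its annotated primary transcript and not intronic in a protein-coding gene. Its nearest protein-coding neighbours are CG43233 and CG34007, and 0 other microRNA hairpins lie between them. The annotation places 2 mature products of 22 bases each on the hairpin, at bases 18 to 39 and 56 to 77 counted from its 5′ end. The submitters' notes name the build dm3, so no genome coordinate of the other build is given here. Neither the table nor the annotation ties the suffixes 1 and 2 to an arm, so the products are called by their abundance. No base sequence is shown.

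The wild-type library held 2135660 reads over the listed products and the cdk9-G57S library 2204104, which is 3.20% more. The table counts microRNAs and no messenger RNAs, so neither the genotype nor the muscle content of the larvae could be checked against other transcripts. No product of another hairpin had reads within 10% of those of either mir-1 product in both libraries (0 for each), so neither has the near-equal reads that some products in the table share.

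The more abundant product, MI0000116_2, was read 92686 times in the wild-type library and 311818 times in the mutant library. It was thus among the commonest microRNAs of both libraries and had more reads in the mutant. Its share of the listed reads was 4.34% in wild type (exact Clopper-Pearson interval 4.31 to 4.37) and 14.1% in cdk9-G57S (14.1 to 14.2). This corresponds to 1 read in every 23.0 in wild type and 1 in every 7.07 in the mutant. The share was 3.26-fold higher in cdk9-G57S (exact conditional-binomial interval 3.24 to 3.28), a log2 ratio of 1.70. A share is not an amount of miR-1 per larva, and it can also rise where other microRNAs fall. In shares of whole-larva RNA, more muscle, more miR-1 per muscle cell and less of other microRNAs cannot be told apart.

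The less abundant product, MI0000116_1, was read 472 times in the wild-type library and 847 times in the mutant library. It was a minor product in both libraries, yet it too had more reads in the mutant. Its share was 22.1 per 100000 listed reads in the control and 38.4 in the mutant. The share was 1.74-fold higher (interval 1.55 to 1.95), a log2 ratio of 0.80. The interval lies above 1 and below the 2-fold limit used for the whole table. Summed over both products, the hairpin went from 93158 to 312665 reads and its share was 3.25-fold higher (3.23 to 3.28), which follows the abundant product because that product supplied nearly all of the reads.

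**Figure D1:**
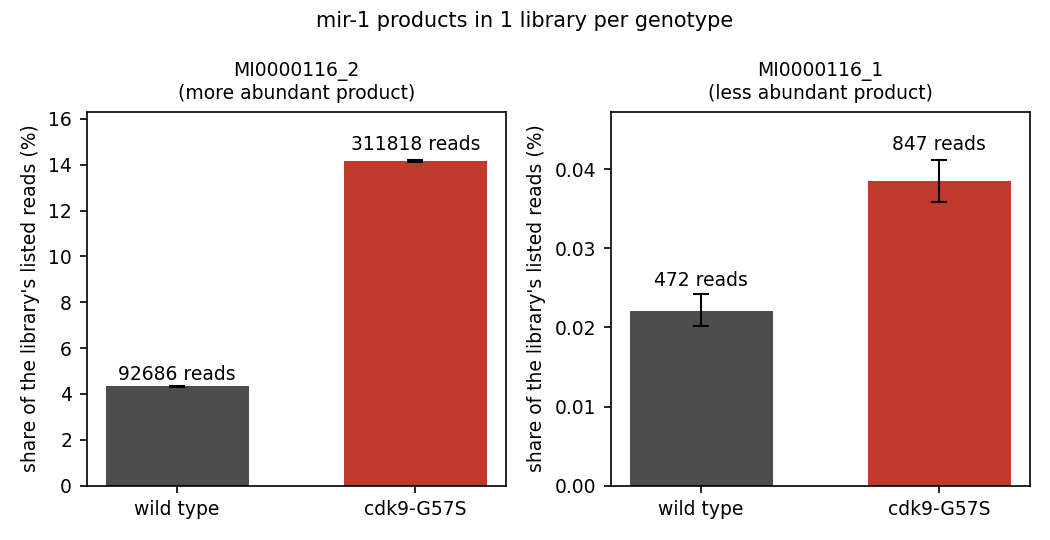
Share of each library's listed reads (percent) taken by the more abundant mir-1 product (left) and the less abundant one (right), in 1 wild-type and 1 cdk9-G57S library. Bars start at 0, black lines are exact 95% counting intervals, and read counts stand above the bars; both products had a larger share in cdk9-G57S, 14.1% against 4.34% and 38.4 against 22.1 reads per 100000.

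Against the whole table, the more abundant product was 1 of 28 products whose share was at least 2-fold higher in cdk9-G57S with an interval that excluded 1. These were 27.7% of the 101 products, so passing this limit was common. At the level of hairpins, mir-1 was 1 of 24 past the same limit, or 28.9% of 83. The less abundant product was 1 of 36 past a 1.5-fold limit, or 35.6% of the table. By size of the ratio the abundant product stood at rank 15 and the less abundant one at rank 32 of 101. A higher share was therefore not particular to mir-1. What differed was the number of reads involved. The 14 products with larger ratios each took at most 1.98% of the mutant reads, and all 14 together took 1.66% of wild-type and 8.06% of mutant reads. Among the 10 products with the most reads summed over both libraries, MI0000116_2 had the highest ratio. MI0000136_2, with more reads in both libraries, was close to it at 3.11, so a high ratio with many reads was not particular to mir-1. Of these 10, 3 were at least 2-fold higher and 6 had a lower share in the mutant.

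**Figure D2:**
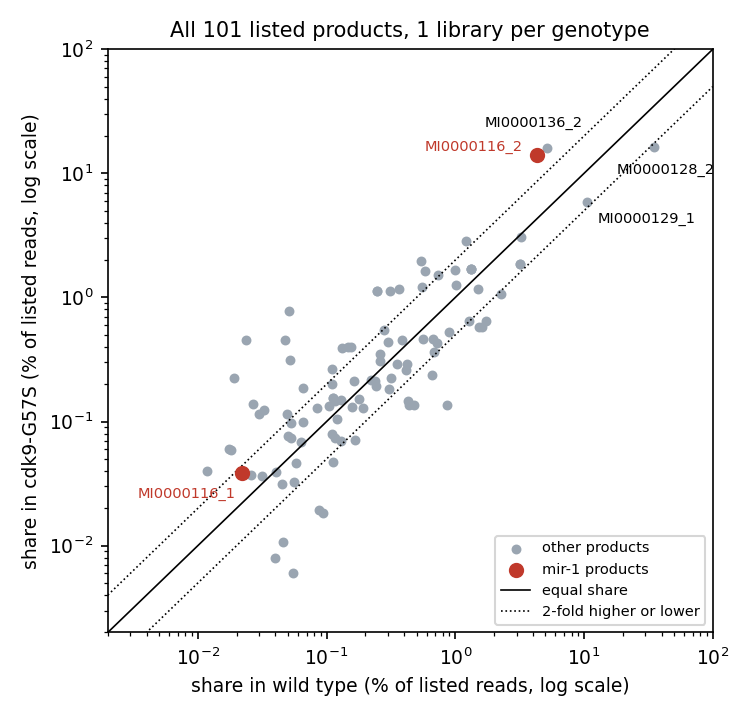
Share of listed reads in wild type (x axis, percent, log scale) and in cdk9-G57S (y axis, percent, log scale) for all 101 products, 1 library per genotype; mir-1 products are red. The solid line marks equal shares and the dotted lines 2-fold differences; MI0000116_2 lies above the upper dotted line near the top right and MI0000116_1 lies between the solid and upper dotted lines near the bottom left.

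In the order of abundance, MI0000116_2 was at rank 4 in wild type and rank 3 in cdk9-G57S. Directly above it in both libraries was the product MI0000136_2, which also had a higher share in the mutant. It had 109726 and 351685 reads, 18.4% more than mir-1 in wild type and 12.8% more in cdk9-G57S. The reads of MI0000116_2 per read of MI0000136_2 were 0.845 in wild type and 0.887 in the mutant, a change of 1.05-fold (interval 1.04 to 1.06). The pair therefore stayed close to the same proportion, although the interval excludes no change at all. Directly below mir-1 in wild type was a product with 69194 reads, 1.34-fold fewer. In cdk9-G57S the next product below was MI0000129_1 with 128732 reads, so the gap had opened to 2.42-fold. These gaps are larger than counting error, but how far they vary between larvae of 1 genotype is unknown.

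The position of mir-1 against the products with the most wild-type reads changed more. These ratios do not depend on how a library is scaled. The table's most abundant product, MI0000128_2, was read 749599 times in wild type and 361293 times in the mutant. It outnumbered MI0000116_2 by 8.09-fold in wild type and by 1.16-fold in the mutant, so mir-1 gained 6.98-fold on it (interval 6.92 to 7.04). The product MI0000129_1 had 226832 reads in wild type. It exceeded mir-1 there by 2.45-fold, and in cdk9-G57S mir-1 exceeded it by 2.42-fold, a change of 5.93-fold (5.87 to 5.99) in which the order of the 2 products turned over.

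In terms of the pool, MI0000116_2 gained 9.81 percentage points of the listed reads and MI0000136_2 gained 10.8. All 54 products whose share was higher gained 36.3 points in sum. The mir-1 product accounted for 27.0% of that sum, MI0000136_2 for 29.8%, and both for 56.9%. The product with the third largest gain added 1.64 points. Since shares must sum to the whole, a gain of this size lowers the shares of the rest, and a large loss raises them. The largest change in the other direction was that of MI0000128_2, at -18.7 points. It took 35.1% of the wild-type reads but 16.4% of the mutant reads. Leaving that product out of both totals gave a ratio of 2.53 for MI0000116_2, compared with 3.26 when it was counted. With the mir-1 reads taken out of both totals, the log2 ratio of each of the 99 other products was 0.16 higher. Of these 99, 30 were then at least 2-fold higher and 15 at least 2-fold lower, compared with 27 and 17 when mir-1 was counted in the totals.

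The size of the mir-1 difference depended on the scaling, and its direction did not under any of the scalings tried. On the authors' deposited scale, which divides each library by a size factor, MI0000116_2 had a signal of 102223 in the control and 282695 in the mutant, a 2.77-fold higher value. The product MI0000116_1 had 521 and 768, a 1.48-fold higher value. This scale sets the median log2 ratio of all products to 0.00, and it lowers every log2 ratio by 0.24 compared with scaling by total. On it 24 products were at least 2-fold higher, which is 23.8% of the table and still included MI0000116_2, and 24 were at least 2-fold lower, against 28 and 17 under scaling by total. With factors from edgeR's TMM method the ratios were 2.90 and 1.55. With MI0000128_2 left out of the totals they were 2.53 and 1.35 (interval of the latter 1.20 to 1.51), the smallest values obtained. With both mir-1 products left out of the totals they were 3.63 and 1.94, the largest, and the interval of the second (1.73 to 2.17) then reached past 2. The abundant product was above the 2-fold limit under each of these scalings, and the less abundant product was below it under each.

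**Figure D3:**
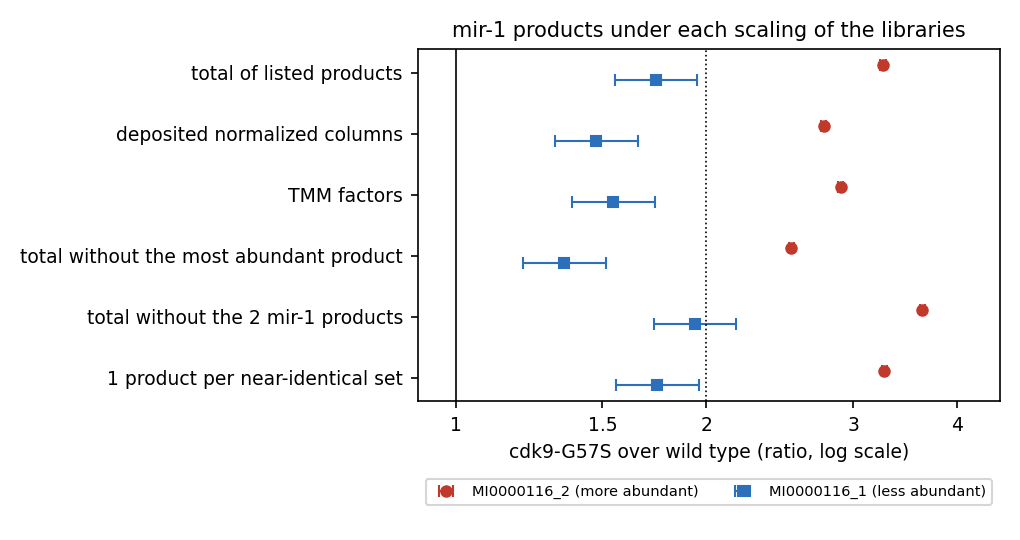
Ratio of cdk9-G57S over wild type (x axis, log scale) for the more abundant (red circles) and less abundant (blue squares) mir-1 product under 6 ways of scaling the 2 libraries. Horizontal lines are 95% counting intervals, the solid vertical line marks no difference and the dotted line 2-fold; MI0000116_2 lies between 2.53 and 3.63 and MI0000116_1 between 1.35 and 1.94.

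The ratio between the products of the hairpin needs no scaling, because each library's factor cancels. As background, it depends in part on how unequally the strands of the duplex are kept, which was not measured apart from the read counts. In wild type there were 196 reads of MI0000116_2 for each read of MI0000116_1 (interval 179 to 215). In cdk9-G57S there were 368 (344 to 394), so the intervals do not overlap and the imbalance was larger in the mutant. The less abundant product made up 0.507% of all mir-1 reads in wild type (0.462 to 0.554) and 0.271% in cdk9-G57S (0.253 to 0.290). The ratio changed by 1.87-fold (normal-approximation interval from the 4 counts 1.67 to 2.10), a log2 change of 0.91. Both products had larger shares in the mutant, and the abundant product's increase was the larger.

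Of the 83 hairpins, 18 had 2 listed products, ranked here by their reads summed over both libraries, and mir-1 was the most unequal of these in wild type. The next highest ratio in wild type was 55.1, and the median over the 18 was 5.42. In cdk9-G57S mir-1 was second to the hairpin MI0000136, whose ratio was 864 there, and the median was 13.7. The lowest sum of reads over both libraries among the listed products was 1023, and MI0000116_1 had 1319. With such a lower bound, a very high ratio is mainly open to hairpins whose abundant product had very many reads, as that of mir-1 did. The rank of mir-1 and the medians beside it therefore depend in part on which products were listed. The other 65 hairpins had 1 listed product each, so no ratio could be computed for them.

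The change within mir-1 was below the median of these hairpins but not the smallest. The ratio between products changed at least 2-fold by its estimate, in either direction, in 12 of the 18 hairpins (66.7%). With an estimate of 1.87-fold mir-1 was not among them, although its interval (1.67 to 2.10) reached past 2. By the size of this change mir-1 was at rank 14 of 18, and the median change was 3.31-fold. Ordered by signed change, its neighbours were the hairpins MI0000129 and MI0000128. In MI0000129 the ratio went from 22.1 to 42.7, a 1.93-fold change in the same direction. In MI0000128 it went from 48.5 to 37.9, a change to 0.780 of the wild-type value, in the other direction. In 14 hairpins the same product was the more abundant in both libraries, as in mir-1, and the ratio was higher in the mutant in 8 of these and lower in 6.

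Both products of mir-1 had higher shares in cdk9-G57S, which was so in 4 of the 18 hairpins. Both products were lower in 5, and in 9 the products had opposite directions. On the deposited scale mir-1 was 1 of 3 hairpins with both products higher, since in another hairpin a product had equal values in both libraries (log2 ratio within 0.0001 of no difference). The hairpin MI0000136, whose abundant product kept nearly the same proportion to that of mir-1, was among those with opposite directions. Its rarer product was read 1991 times in wild type and 407 times in the mutant, and its ratio between products changed by 15.7-fold. The abundant products of MI0000116 and MI0000136 thus had nearly the same ratio between libraries, while their rarer products went in opposite directions.

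**Figure D4:**
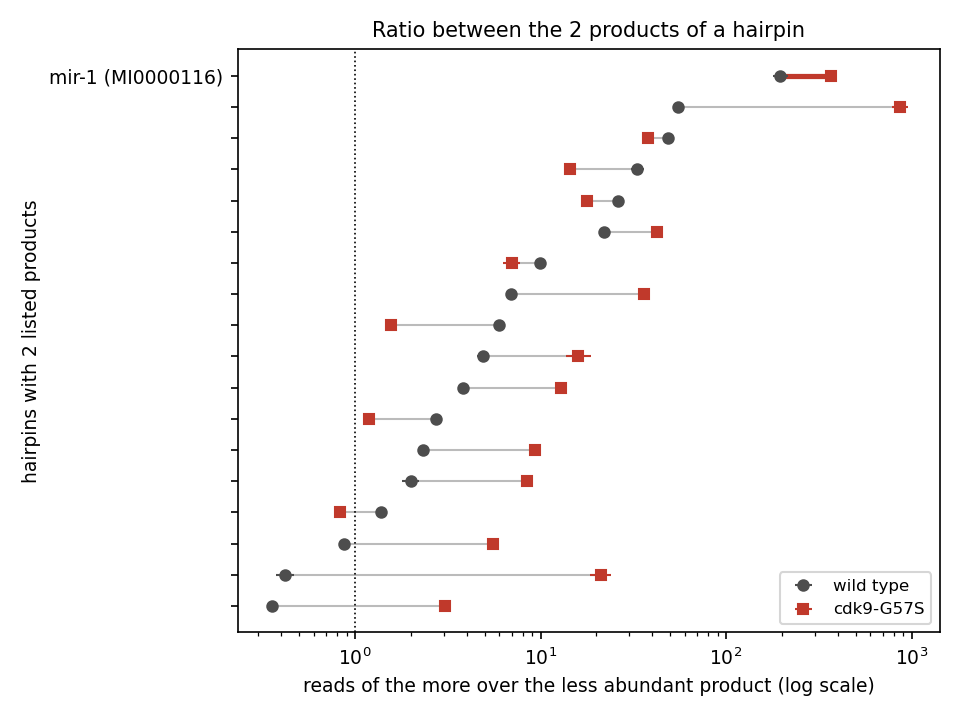
Reads of the more abundant over the less abundant product (x axis, log scale) for the 18 hairpins with 2 listed products (rows, ordered by the wild-type value; abundance ranked by reads summed over both libraries), in wild type (grey circles) and cdk9-G57S (red squares), with the mir-1 row joined in red and the others in light grey. Short lines are 95% counting intervals and the dotted line marks equal reads; mir-1 is the top row, with its circle at 196 and its square at 368.

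The products with the most similar ratio between the libraries were found by the smallest difference of log2 ratios, which over 2 libraries is a description of 1 difference and no profile. For MI0000116_2 the nearest was MI0000418_1, read 384 times in wild type and 1290 times in the mutant, for a share ratio of 3.26 (interval 2.90 to 3.66). The next 2 nearest products had ratios of 3.22 and 3.39. These 3 stood at ranks 99, 37 and 101 in wild type, far below mir-1, so a ratio like that of mir-1 occurred among scarce products as well. For MI0000116_1 the 3 nearest products had ratios of 1.67, 1.82 and 1.85. In wild type MI0000116_1 lay at rank 97, between products with 504 and 410 reads. In cdk9-G57S it lay at rank 92, between products with 859 and 814 reads. Its counting interval overlapped those of both neighbours in each library, so its exact place in the order is not settled at this depth.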

How the data were processed

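MicroRNA reads of whole larvae were analysed for 1 wild-type and 1 cdk9-G57S library, grouped by the labelled genotype. Per the labels' protocols, RNA was extracted with Trizol for Illumina sequencing, and the submitters' processing notes name Bowtie and dm3. For adapter trimming, length filter, microRNA release and reads with several matches, nothing is stated in those sources. The authors deposited raw read counts per product and a normalized signal, made per the file headers with DESeq2; the size factors recovered from the values were 0.907 and 1.10. The 4 footer and blank lines were left out.

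Shares are of the total counts over 101 products (2135660 and 2204104). Intervals (95%) were exact Clopper-Pearson for shares, exact conditional-binomial for ratios and normal-approximation for changes between products. On simulated Poisson counts, those for ratios were checked for all products and those for changes on 1 pair of products only. Those for shares were not checked. In place of a test, a product with at least 20 reads summed passed the 2-fold limit when its ratio was 2 or more, or 0.5 or less, and the interval excluded 1, since 1 library per genotype allows none. Named were the mir-1 products, their neighbours in rank, the products nearest in ratio and the hairpins next in change between products, with at most 2 identifiers that rose and 2 that fell, because 0 of 83 accessions matched the RefSeq gene table. The planned lists of muscle and stage-linked microRNAs were therefore not used, and hairpin folds and motifs were not analysed here for want of a sequence. Members and rules were chosen with earlier results of these data known. Python 3.11.15, numpy 2.4.6, pandas 2.3.3, scipy 1.17.1, matplotlib 3.10.9, R 4.3.3 and edgeR 4.0.16 (TMM factors) were used.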

Additional observations from a re-analysis of the deposited data

How the results depend on the processing

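The log2 ratio of MI0000116_2 was 1.70 under scaling by total. It was 1.47 on the deposited scale, 1.54 with TMM factors, 1.34 without the most abundant product in the totals and 1.86 without the mir-1 products. In the same order, the hairpin's log2 ratio was 1.70 and then 1.46, 1.53, 1.34 and 1.86. That of MI0000116_1 was 0.80 and then 0.56, 0.63, 0.43 and 0.95. A pseudocount of 5 reads moved the product values by less than their counting interval, and gave 0.91 for the log2 change between products. Over the whole table, 29 products were at least 2-fold lower without the most abundant product in the totals. At a 1.5-fold limit 36 were higher and 30 lower, and at a 4-fold limit 8 were higher and 6 lower. A minimum of 2000 reads summed left 89 products, without MI0000116_1, of which 25 were higher and 14 lower. Keeping 1 product of each near-identical set (96 products) put MI0000116_2 at rank 14 by ratio; applying this to the totals was chosen after seeing the data and gave a log2 ratio of 1.71. The planned restriction to hairpins whose products both reached 1000 reads in both libraries left 10 hairpins and removed mir-1, so it gives no rank. No paired analysis was possible because there is 1 library on each side. Depth limits MI0000116_1 most, and variation between larvae of 1 genotype was not measured.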
